A study of Mus musculus with 4 samples.

Results

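Arg1, Arg2, Nos2, Odc1, Ass1 and Slc7a2 are 6 genes of arginine metabolism, taken by symbol from the deposited single-cell counts, and they make up 6 of the 21739 gene symbols listed in the 4 libraries together, of which 19001 were listed in every library. The libraries came from periwound skin of C57/BL6j mice aged 6 weeks, collected a week after wounding, with 1 mouse per library. The 2 mice of the control group received phosphate-buffered saline under the skin around the wound, and the 2 mice of the hucMSC-Exosomes group received exosomes of human umbilical cord mesenchymal stem cells (hucMSC), small vesicles that such cells release in culture. The sources used here give no allele or further treatment for any of the mice, and the libraries are called Control 1, Control 2, hucMSC-Exo 1 and hucMSC-Exo 2 by their titles. By a letter in their file names, the matrices pair Control 1 with hucMSC-Exo 1 and Control 2 with hucMSC-Exo 2, so each direction between groups rests on the titles, and although the labels give gut segments as tissue, their cell type field and protocol give skin, as the paper does.

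Arginine is the substrate of competing enzymes. Arg1, the cytosolic arginase, and Arg2, the mitochondrial arginase, split it into ornithine and urea, while Nos2, the inducible nitric oxide synthase, turns it into nitric oxide and citrulline. Slc7a2, also called CAT2, is a transporter that carries arginine into the cell, Ass1 (argininosuccinate synthase) starts the resynthesis of arginine from citrulline, and Odc1 (ornithine decarboxylase) makes putrescine, the first polyamine, from ornithine. In wounds, macrophages with Arg1 are commonly linked to repair and macrophages with Nos2 to defence, and polyamines are needed by growing cells.

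On the GRCm38 assembly, Arg1 lies on chromosome 10 at chr10:24915221-24927484 on the minus strand and Nos2 on chromosome 11 at chr11:78920787-78960254 on the plus strand. Arg2 lies at chr12:79130777-79156301 and Odc1 at chr12:17544794-17551505, Ass1 at chr2:31470207-31520672 and Slc7a2 at chr8:40862396-40922308, all on the plus strand. These are whole genes, and the 3′ libraries count reads of their transcripts.

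After filtering, 952 cells of Control 1, 2074 of Control 2, 1416 of hucMSC-Exo 1 and 2001 of hucMSC-Exo 2 remained, 6443 in all, with a median of 3747 to 4392.5 unique molecular identifiers (UMIs) per cell, and 6 of 7172 deposited barcodes occurred in more than 1 library. Series of 4 values below follow that order of the libraries. Each cell was assigned to a class by the marker list with the highest score. None of the lists holds 1 of the 6 genes, and since the names stand for marker scores and not for sorted cells, each is to be read with an added "-like". The classes described most here are neutrophils (38, 301, 82 and 495 cells), C1q macrophages (116, 271, 124 and 179), osteoclast-like macrophages (12, 86, 49 and 26) and monocytes (59, 143, 87 and 186). S100a8 was counted in 99.3% of gated neutrophils and 17.0% of other cells, C1qa in 96.2% of C1q macrophages and 5.8% of others, Trem2 in 88.4% of osteoclast-like macrophages and 11.9% of others, and Ly6c2 in 77.3% of monocytes and 10.3% of others. The macrophage and monocyte classes, with 101 cells that scored for several of them, are together called mononuclear phagocytes (1439 cells). Levels are a gene's UMIs per 1000000 UMIs (CPM) of all cells of a class in a library, and since CPM is not corrected for gene length, levels are compared between classes and not between genes. A share is the percentage of cells with at least 1 UMI, and its exact Clopper-Pearson interval covers counting error only.

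**Figure D1:**
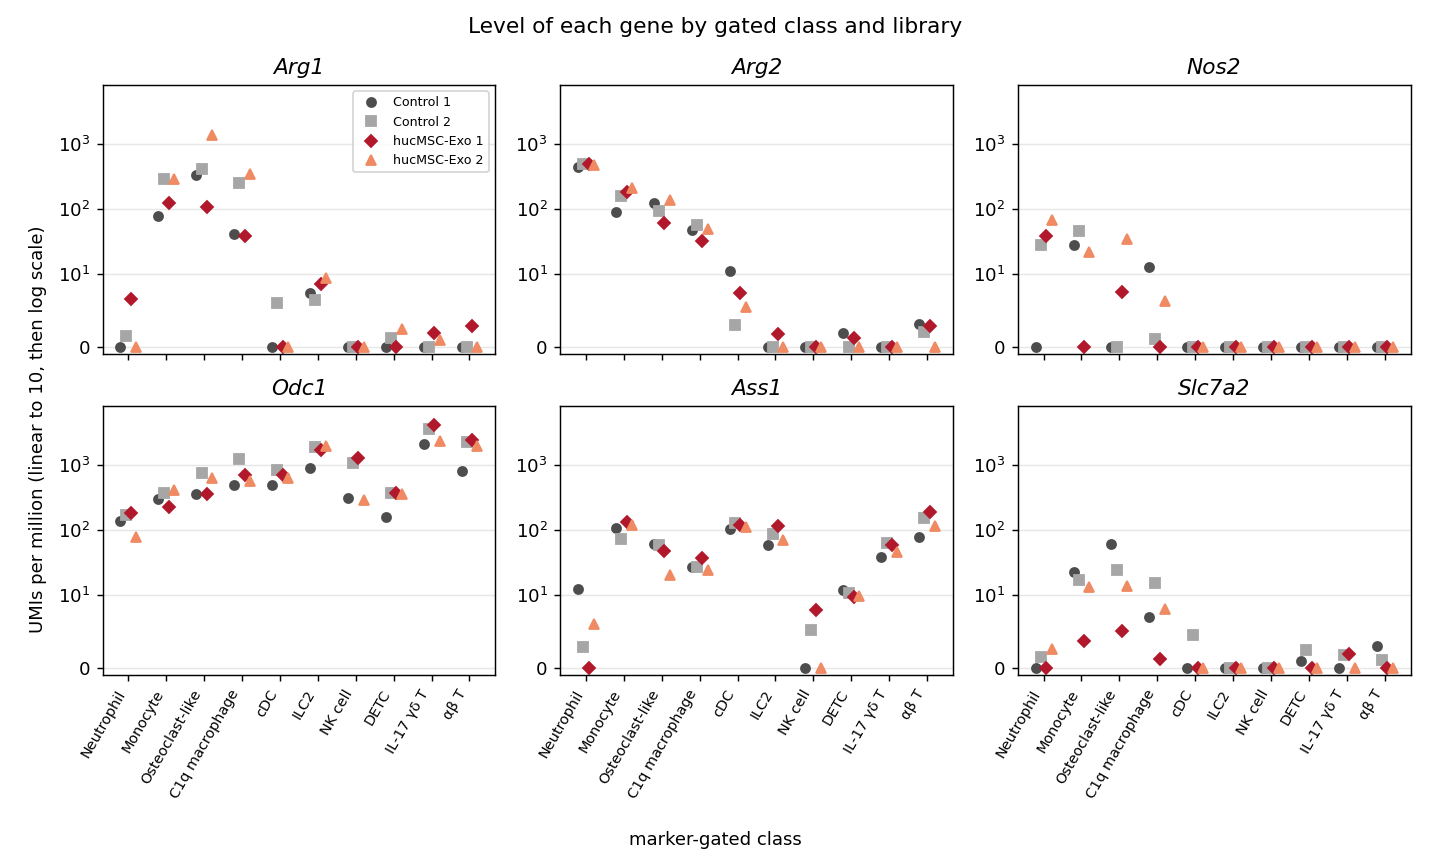
CPM of each of the 6 genes (vertical, linear up to 10 and log scale above) in 10 classes (horizontal; cDC, conventional dendritic cell, and DETC, dendritic epidermal T cell), with 1 point per library, grey for the control and red for the hucMSC-Exosomes group. Arg1 and Slc7a2 lie highest in the phagocyte classes, Arg2 in neutrophils at 434.5 to 492.6 CPM, and Odc1 in IL-17 γδ T cells, while Nos2 is at 0 in all lymphoid classes.

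Arg1 was a gene of mononuclear phagocytes, which held 89.9% of its UMIs in the kept cells (98.1%, 87.5%, 85.3% and 92.7% in the 4 libraries). Its level in the pooled phagocytes was 68.7 CPM in Control 1, 314.9 CPM in Control 2, 81.8 CPM in hucMSC-Exo 1 and 445.1 CPM in hucMSC-Exo 2. In both groups, the library with replicate number 2 was the higher one, and the groups overlapped. The share of phagocytes with an Arg1 UMI was 9.90% (95% interval 6.15% to 14.9%), 30.5% (26.6% to 34.6%), 12.7% (9.11% to 17.1%) and 24.7% (20.6% to 29.2%). The intervals of the replicate 1 libraries did not reach those of the replicate 2 libraries. With each cell drawn down to 2000 UMIs the shares were 6.49%, 20.5%, 10.1% and 19.1%, in the same order, while the median UMIs of the phagocytes were 7703, 7798, 6869 and 6690.

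Arg1 was also uneven between the cells of 1 library. Positive phagocytes held a median of 3 UMIs in Control 1, Control 2 and hucMSC-Exo 1 and of 6 in hucMSC-Exo 2, and the highest single cells held 22, 88, 22 and 69 UMIs. The tenth of positive cells with the most UMIs held 36.6%, 45.1%, 35.0% and 37.5% of the Arg1 UMIs of the phagocytes.

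Within the phagocytes, Arg1 was highest in osteoclast-like macrophages, with 336.8, 409.9, 105.8 and 1360.7 CPM from 33, 302, 42 and 199 UMIs. It reached 78.2, 287.9, 123.7 and 287.6 CPM in monocytes and 40.9, 250.9, 38.1 and 340.9 CPM in C1q macrophages. The osteoclast-like level was the highest of these in Control 1, Control 2 and hucMSC-Exo 2, and monocytes were higher in hucMSC-Exo 1. No Leiden cluster of the cells was named osteoclast-like, and the stricter gate gave no fit for this class. Neither alternative could therefore check an order that involves it. The share of positive cells ran from 20.4% in hucMSC-Exo 1 to 65.4% in hucMSC-Exo 2 for osteoclast-like macrophages, from 8.47% to 28.7% for monocytes and from 7.26% to 27.7% for C1q macrophages, and after drawing down to 2000 UMIs from 14.9% to 50%, from 6.90% to 22.0% and from 4.42% to 20.6%.

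edgeR's quasi-likelihood test on the UMIs summed per library and class, with library as a block and Benjamini-Hochberg adjustment over 6996 genes, placed Arg1 higher in osteoclast-like macrophages than in C1q macrophages by 1.65 ± 0.29 on the log2 scale (estimate ± SE, adjusted p = 1.2e-04, higher in 4 of 4 libraries), in a comparison that called 6.05% of the 6996 genes. Against monocytes the difference was 1.08 ± 0.30 (adjusted p = 0.0105, 3 of 4 libraries, 14.4% of genes called). Monocytes and C1q macrophages differed by 0.57 ± 0.28 in Arg1, which did not pass the threshold (adjusted p = 0.155, 19.3% of genes called). The order of the osteoclast-like class over monocytes was the less stable one, since the call was lost without Control 1 (0.85), Control 2 (1.24) or hucMSC-Exo 2 (0.62). It turned to -0.40 when all deposited cells were used, and the difference from C1q macrophages then fell to 0.27 and lost its call. That setting restored the cells with over 3000 detected genes, among them 18, 120, 50 and 8 osteoclast-like cells. It also restored those with over 10% of UMIs from mitochondrial genes, and the filters were not lifted separately.

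Outside the phagocytes Arg1 was at or near 0 in most classes. αβ T cells, which are not known for Arg1, held no Arg1 UMI in 3 libraries and a share of 1.23% in hucMSC-Exo 1 at a median of 4396 UMIs per cell. ILC2, the group 2 innate lymphoid cells, which are known to use Arg1, showed 7.35, 6.44, 8.68 and 9.51 CPM from 11 UMIs in all, with shares of 4.55%, 3.57%, 3.20% and 3.57%. The ILC2 values came from few UMIs but were close to each other in the 4 libraries and above the αβ T cell share in each. They were not above every other class, since mature dendritic cells reached 10.6 CPM and keratin-gated cells 12.8 CPM in their highest libraries. Both of these classes were at 0 in their lowest library. C1q macrophages exceeded ILC2 by 4.14 ± 0.50 on the log2 scale (edgeR, adjusted p = 3.0e-09, 54% of genes called). Among 916 neutrophils 2 had an Arg1 UMI, NK cells had none, and fibroblast-gated cells of Control 2 reached 133 CPM from 27 UMIs in 63 cells, and 70.9% of the fibroblast-gated cells of all libraries also held the leukocyte gene Ptprc.

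**Figure D2:**
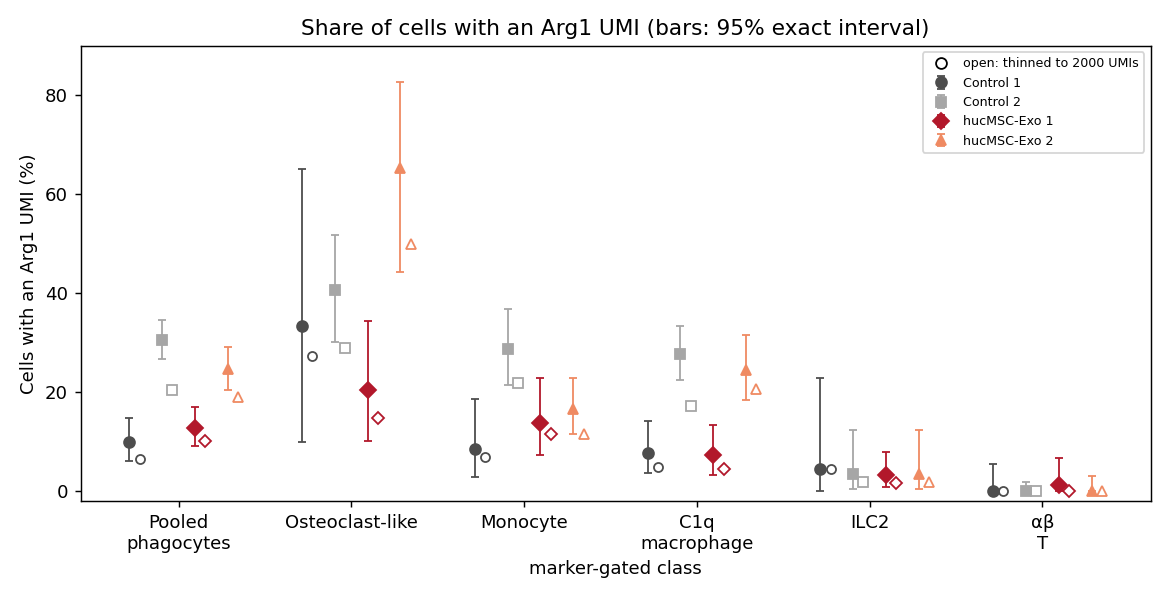
Share of cells with at least 1 Arg1 UMI (vertical, percent) in each phagocyte class and in reference classes, by library, with exact 95% intervals as bars. Shares in Control 2 and hucMSC-Exo 2 lie above those of Control 1 and hucMSC-Exo 1 in the pooled phagocytes, and αβ T cells lie at or near 0.

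Arg2 had a different distribution, with its highest level in neutrophils and the next in monocytes. Neutrophils showed 434.5, 492.6, 487.6 and 465.1 CPM of Arg2, close to each other in the 4 libraries. The share of neutrophils with an Arg2 UMI was 57.9%, 59.5%, 52.4% and 59.6% at a median of 2142.5 UMIs per cell, and 69.6%, 57.6%, 60% and 61.2% of those with at least 2000 UMIs after drawing down. αβ T cells, which stand for free RNA here, had an Arg2 UMI in at most 1.56% of cells, and IL-17 γδ T cells and NK cells had none.

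The level of Arg2 was 90.8, 156.3, 180.1 and 209.0 CPM in monocytes, 122.5, 93.7, 60.5 and 136.8 CPM in osteoclast-like macrophages and 48.0, 57.0, 32.2 and 49.7 CPM in C1q macrophages. In conventional dendritic cells it was 10.97, 3.01, 7.42 and 5.52 CPM. Neutrophils lay above each of these classes in all 4 libraries. The difference between neutrophils and monocytes was 1.90 ± 0.22 on the log2 scale (edgeR, adjusted p = 3.6e-09, 50.7% of genes called), and that between neutrophils and C1q macrophages was 3.72 ± 0.24 (adjusted p = 4.9e-16, 60% of genes called). C1q macrophages exceeded conventional dendritic cells by 2.93 ± 0.47 (adjusted p = 4.5e-06, 36.3% of genes called), a call that was lost with Leiden clusters in place of gates (0.30).

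The order of Arg2 among the phagocytes was not that of Arg1. Arg2 was lower in osteoclast-like macrophages than in monocytes, where Arg1 was higher, by -0.88 ± 0.26 (edgeR, adjusted p = 0.0195, lower in 3 of 4 libraries). This call was lost without Control 2 (-0.92), hucMSC-Exo 1 (-0.70) or hucMSC-Exo 2 (-0.86). Arg2 was higher in osteoclast-like than in C1q macrophages by 0.94 ± 0.28 (adjusted p = 0.0337, 4 of 4 libraries), a call that 7 of 11 alternatives lost and that turned to -0.70 with all deposited cells. Phagocytes held most of the Arg2 UMIs of Control 1 (60.6%) and hucMSC-Exo 1 (58.5%), while neutrophils, with 495 cells in hucMSC-Exo 2, held 56.9% there.

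Nos2 was sparse, and of its 265 UMIs in the kept cells neutrophils held 103, phagocytes 119 and ungated cells 42. In Control 1, 27 of 49 Nos2 UMIs (55.1%) were in ungated cells. Neutrophils held 0, 20, 6 and 77 Nos2 UMIs, which gave 0, 28.5, 39.0 and 66.6 CPM and shares of 0%, 4.98%, 6.1% and 8.69%. Control 1 contributed 38 neutrophils, and 0 UMIs there allow a share of up to 7.89% and a level of up to 37.2 CPM by a limit of 3 counts, which does not separate it from Control 2. After drawing down to 2000 UMIs the shares were 0%, 3.94%, 10% and 9.87% of 23, 203, 30 and 304 neutrophils. No Nos2 UMI was counted in αβ T cells, dendritic epidermal T cells, IL-17 γδ T cells, NK cells, ILC2 or conventional dendritic cells of any library, so free RNA gave Nos2 no measurable share in these classes.

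Monocytes showed 27.8, 46.4, 0 and 21.7 CPM of Nos2, osteoclast-like macrophages 0, 0, 7.56 and 34.2 CPM and C1q macrophages 12.9, 1.05, 0 and 6.33 CPM. The phagocyte values rested on few cells, and in Control 2 a single monocyte held 33 of the UMIs of Nos2, 64.7% of those in that library's phagocytes. Neutrophils exceeded C1q macrophages in Nos2 by 3.58 ± 0.77 on the log2 scale in edgeR (adjusted p = 2.4e-04, range over the alternatives 8.4e-17 to 0.44, higher in 3 of 4 libraries). DESeq2, which gave 3.44, did not call it (adjusted p = 0.44). Neutrophils and monocytes differed by 1.05 ± 0.66 (adjusted p = 0.190, 2 of 4 libraries higher), which was not called, although it was without Control 2 (1.92). Monocytes exceeded C1q macrophages by 2.53 ± 0.74 (edgeR, adjusted p = 0.0155, 3 of 4 libraries), a call lost in DESeq2, without Control 2 (1.29) and without hucMSC-Exo 2 (2.71). edgeR called Nos2 in 22 of the 55 pairs of classes and DESeq2 in 0.

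Slc7a2, like Arg1, was found mostly in phagocytes, which held 73.3% of its UMIs, but at lower counts. The order of the libraries in the pooled phagocytes was not that of Arg1. The pooled phagocytes held 22, 71, 5 and 34 Slc7a2 UMIs, or 14.97, 17.8, 2.51 and 13.4 CPM, with shares of 4.46%, 6.47%, 1.72% and 4.69%. Osteoclast-like macrophages showed 61.2, 24.4, 5.04 and 13.7 CPM, monocytes 22.7, 17.1, 3.64 and 13.4 CPM and C1q macrophages 7.02, 15.2, 1.19 and 8.14 CPM. The osteoclast-like level was the highest of the phagocyte classes in each library, but by a narrow margin over monocytes in hucMSC-Exo 2. This order rested on 28 UMIs in osteoclast-like macrophages over the 4 libraries, 45 in monocytes and 45 in C1q macrophages. ILC2 and NK cells held no UMI of Slc7a2. It did not pass the filter on low counts in the fit over classes, so these differences have no test.

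Odc1, the enzyme downstream of the arginases, was by contrast highest in lymphoid cells. IL-17 γδ T cells, the Il17a-expressing γδ T cells, showed 2076, 3550, 4068 and 2311 CPM of Odc1, with a UMI in 79.5%, 91.4%, 95.5% and 86.4% of cells. αβ T cells showed 801, 2273, 2392 and 1929 CPM and ILC2 897, 1885, 1672 and 1963 CPM. In dendritic epidermal T cells, the γδ T cells resident in mouse epidermis, Odc1 was 156, 366, 372 and 355 CPM. Its share there was 23.4%, 28.2%, 36.3% and 33.5% at a median of 3489 UMIs per cell, against 4694.5 in IL-17 γδ T cells.

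By mean level, the 2 kinds of γδ T cell lay at opposite ends of the tested lymphoid classes in Odc1. In hucMSC-Exo 2, however, NK cells, at 288 CPM, lay below dendritic epidermal T cells. IL-17 γδ T cells exceeded dendritic epidermal T cells by 3.38 ± 0.30 on the log2 scale (edgeR, adjusted p = 1.3e-12, 4 of 4 libraries, 37.6% of genes called). αβ T cells exceeded dendritic epidermal T cells by 2.60 ± 0.29 (adjusted p = 4.1e-10, 36% of genes called). IL-17 γδ T cells and αβ T cells differed in Odc1 by 0.77 ± 0.27 (adjusted p = 0.05004, 13.4% of genes called), just short of the threshold, and the difference was called without hucMSC-Exo 2 (0.93). αβ T cells and ILC2 did not separate (0.12 ± 0.27, adjusted p = 0.929, 4.3% of genes called). ILC2 lay above NK cells, which showed 313, 1054, 1257 and 288 CPM, by 1.24 ± 0.28 (adjusted p = 0.00151, 13.3% of genes called), a call lost without hucMSC-Exo 2 (0.86).

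Among neutrophils, monocytes and C1q macrophages the order of Odc1 was the reverse of that of Arg2. It was 483, 827, 705 and 635 CPM in conventional dendritic cells, 488, 1225, 707 and 571 CPM in C1q macrophages, 357, 760, 360 and 622 CPM in osteoclast-like macrophages, 300, 368, 227 and 416 CPM in monocytes and 137, 172, 182 and 77.8 CPM in neutrophils. Monocytes lay below C1q macrophages by -1.04 ± 0.28 (edgeR, adjusted p = 0.00590, lower in 4 of 4 libraries, lost without Control 2 at -0.82), and neutrophils below monocytes by -1.02 ± 0.32 (adjusted p = 0.00635, 4 of 4, lost without hucMSC-Exo 2 at -0.81). Osteoclast-like and C1q macrophages differed in Odc1 by -0.53 ± 0.29, which did not pass the threshold (adjusted p = 0.345). C1q macrophages lay below ILC2 by -1.02 ± 0.28 (adjusted p = 0.00169, lower in 4 of 4). Dendritic epidermal T cells and neutrophils, at the low end of each lineage, differed by 0.59 ± 0.31 (adjusted p = 0.0899, 68% of genes called), with the sign turned under a stricter gate (-0.42) and with Leiden clusters (-0.63).

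Ass1, which starts the recycling of citrulline to arginine, was found in some lymphoid and some myeloid classes. αβ T cells showed 79.2, 150.4, 191.8 and 116.2 CPM of Ass1, conventional dendritic cells 104.2, 129.2, 118.8 and 110.5 CPM and monocytes 108.5, 73.9, 131.0 and 120.4 CPM. Mature dendritic cells, which were too few in Control 1 to be tested, showed 107.4, 233.2, 313.9 and 151.1 CPM. αβ T cells and conventional dendritic cells were not told apart (-0.13 ± 0.23, adjusted p = 0.683, 43.7% of genes called).

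NK cells held few Ass1 UMIs (0, 5.22, 8.01 and 0 CPM), and αβ T cells exceeded them by 5.23 ± 0.50 on the log2 scale (edgeR, adjusted p = 1.0e-10, 10.8% of genes called). Dendritic epidermal T cells were at 12.1, 10.8, 9.74 and 9.95 CPM and neutrophils at 12.4, 2.85, 0 and 6.05 CPM. The αβ T cells exceeded dendritic epidermal T cells by 3.66 ± 0.28 (adjusted p = 3.1e-14), and IL-17 γδ T cells, at 37.95, 62.7, 59.7 and 45.5 CPM, were lower in Ass1 than αβ T cells by -1.32 ± 0.24 (adjusted p = 7.6e-05, lower in 4 of 4 libraries), the opposite side from Odc1. Monocytes exceeded neutrophils, with a difference of -3.96 ± 0.40 for neutrophils minus monocytes (adjusted p = 1.9e-11).

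Among the phagocytes Ass1 was highest in monocytes. C1q macrophages were at 26.9, 26.7, 36.9 and 24.4 CPM of Ass1 and osteoclast-like macrophages at 61.2, 58.4, 47.9 and 20.5 CPM. Monocytes exceeded C1q macrophages by 1.99 ± 0.24 (edgeR, adjusted p = 1.4e-08), and osteoclast-like macrophages were lower than monocytes by -1.25 ± 0.28 (adjusted p = 0.00127, lost without hucMSC-Exo 2 at -0.98). Osteoclast-like and C1q macrophages differed by 0.74 ± 0.30 (adjusted p = 0.145), with the sign turned when all deposited cells were used (-0.91). C1q macrophages were lower than conventional dendritic cells by -2.23 ± 0.25 (adjusted p = 1.4e-09) and higher than dendritic epidermal T cells by 1.57 ± 0.31 (adjusted p = 2.7e-05, 63.2% of genes called).

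The other genes of the pathway were read from a list of urea cycle, transport, proline, polyamine, hypusine, creatine and nitric oxide genes, of which 24 passed the filter in the fit over classes. Between IL-17 γδ T cells and dendritic epidermal T cells, 6 of the 24 were higher and 5 lower in IL-17 γδ T cells, 45.83% of the list against 37.6% of all genes, and the median difference was -0.08 on the log2 scale for the list and for all genes. The higher ones were Ckb, brain-type creatine kinase (3.09), Smox, spermine oxidase (2.19), Sms, spermine synthase (1.28), Slc7a1, a cationic amino acid transporter (0.77), Sat1, which acetylates polyamines (0.74), and Oaz1, the antizyme that inhibits Odc1 protein (0.34). Qdpr (-1.45), Pts (-0.99) and Spr (-0.89), which act in the biopterin pathway, Amd1 (-1.17), which supplies the propylamine donor for polyamines, and Eif5a (-0.57), the protein that carries hypusine, were lower. The share of the list called was close to that of all genes, so the list was not set apart by its number of calls.

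Monocytes differed from C1q macrophages in 6 of the 24 genes, 25% against 19.3% of all genes. Smox (1.12) and Gch1, which starts the synthesis of the Nos2 cofactor tetrahydrobiopterin (1.05), were higher in monocytes. Paox, a polyamine oxidase (-2.02), Qdpr (-1.94), Gatm, which makes the creatine precursor from arginine (-1.51), and Atp13a2, a lysosomal polyamine transporter (-1.31), were lower. Osteoclast-like and C1q macrophages differed in 1 of the 24 genes, Sms (1.36 higher in osteoclast-like cells, edgeR adjusted p = 3.9e-05), 4.167% of the list against 6.05% of all genes. Monocytes and neutrophils differed in 12 of the 24 (8 higher in monocytes, 4 lower), 50% against 50.7% of all genes, with Gatm (5.14) and Asl, which acts after Ass1 (1.80), higher in monocytes and Pts (-2.51) lower.

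**Figure D3:**
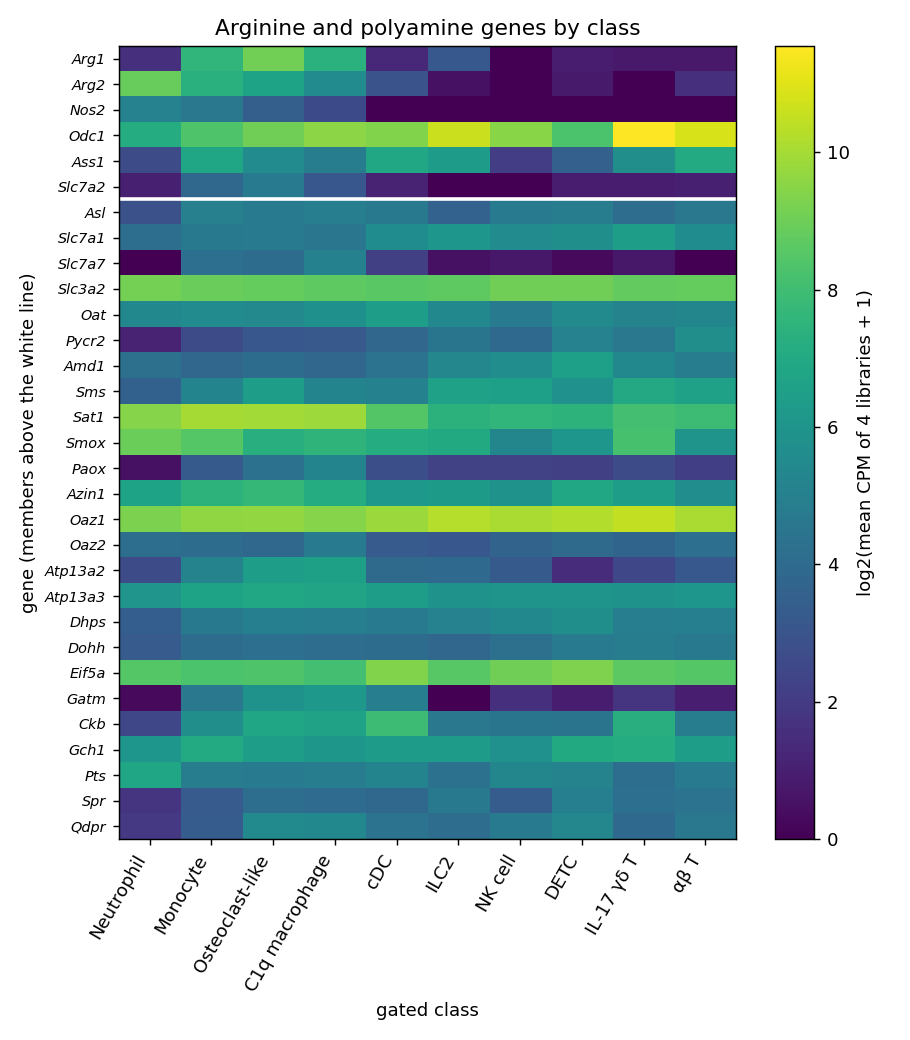
Log2 of the mean CPM of the 4 libraries plus 1 (colour) for the 6 genes, above the white line, and for other genes of the pathway with a mean of at least 20 CPM in some class, below it (vertical), in 10 classes (horizontal; cDC, conventional dendritic cell, and DETC, dendritic epidermal T cell). Odc1 is brightest in IL-17 γδ T cells and Arg2 in neutrophils, and Gatm and Paox are darker in neutrophils than in monocytes (log2 difference 5.14 for Gatm and 2.65 for Paox).

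Arg1 and Nos2 compete for arginine, and their UMIs were found in the same cells more often than their separate shares give. Both genes were counted in 20 kept cells, 2, 3, 1 and 14 by library, and all 20 were phagocytes. By class, 8 were monocytes, 5 C1q macrophages and 4 osteoclast-like macrophages, and 3 scored for several phagocyte classes. The number expected from the product of the separate shares within each library and class was 8.22, a ratio of 2.43 (95% Poisson interval 1.49 to 3.76, counting error only). Of the 30 phagocytes with Nos2, 66.7% had Arg1 (47.2% to 82.7%), against 21.4% (19.3% to 23.7%) of the 1409 phagocytes without Nos2.

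The direction was the same in each library, with Arg1 in 40%, 50%, 100% and 77.8% of 5, 6, 1 and 18 phagocytes with Nos2 and in 9.14%, 30.3%, 12.4% and 22.2% of those without. Most of the co-positive cells came from hucMSC-Exo 2, and Control 1, Control 2 and hucMSC-Exo 1 gave 6 of the 20 between them. By library, the interval of the ratio within class was 0.60 to 18.0 in Control 1 and 0.36 to 5.16 in Control 2. It was 0.12 to 27.3 in hucMSC-Exo 1 and 1.29 to 3.97 in hucMSC-Exo 2, so only the last lay above 1. The median depth was 6091 UMIs in the 20 cells and 7112 in all phagocytes. The pooled ratio was 2.97 after drawing each cell down to 2000 UMIs (11 cells, 1.48 to 5.32). It was 2.91 with at least 2 UMIs of each gene (10 cells, 1.39 to 5.35) and stayed between 2.33 and 2.97 over 5 alternatives. In hucMSC-Exo 2 alone, the intervals after drawing down and with 2 UMIs were 0.98 to 5.01 and 0.82 to 4.88, which reach 1. A droplet that caught 2 cells would also hold both genes, and with the 5% of cells with the highest doublet scores left out, a choice made after seeing the data, the ratio was 2.34 (19 cells). These counts compare cells of 4 libraries and are a description with no test.

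In neutrophils Nos2 was found beside Arg2, while Arg1 was too rare there to show whether it shares cells with Nos2. Of the 916 neutrophils, 63 held Nos2 (0, 15, 5 and 43 by library), 2 held Arg1, and 0 held both, which allows a share of up to 3 of 916 cells by counting error. Arg2 was counted in 68.3% of the neutrophils with Nos2 and in 58.1% of the others, which had a median of 2420 and 2122 UMIs. By library the shares were 66.7% and 59.1% in Control 2, 40% and 53.2% in hucMSC-Exo 1, which had 5 such cells, and 72.1% and 58.4% in hucMSC-Exo 2, so the direction was not the same in all.

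The remaining genes were found together with Arg1 in phagocytes less far above the product of their shares. Slc7a2 and Arg1 shared 35 cells, 1.87 times the number expected within library and class (1.30 to 2.60). Arg2 and Arg1 shared 130 cells (1.28, 1.07 to 1.52), Odc1 and Arg1 239 cells (1.17, 1.03 to 1.33) and Ass1 and Arg1 74 cells (1.17, 0.92 to 1.47). Among these pairs, only the interval of Ass1 and Arg1 reached 1. With each cell drawn down to 2000 UMIs the ratios were 2.10, 1.51, 1.24 and 1.14 for Slc7a2, Arg2, Odc1 and Ass1, and again only that of Ass1 had an interval that reached 1 (0.67 to 1.80). After this drawing down, the ratio of Arg2 and Arg1 was 0.59 in hucMSC-Exo 1, and no phagocyte of Control 1 held both Slc7a2 and Arg1.

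**Figure D4:**
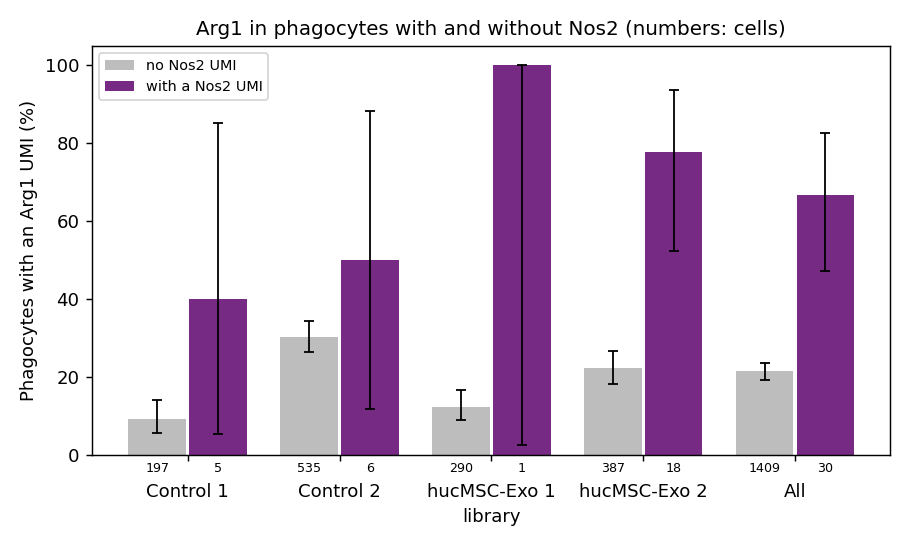
Share of phagocytes with Arg1 (bars, percent) among cells with (purple) and without (grey) a Nos2 UMI, by library and over all, with exact 95% intervals as error bars and cell counts under the axis. The share was higher in cells with Nos2 in each library, from 40% to 100% against 9.14% to 30.3%, with 1 such cell in hucMSC-Exo 1.

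The phagocytes with Arg1 were compared with those without after each cell was drawn down to 2000 UMIs, with 12, 99, 28 and 70 positive and 173, 384, 248 and 296 negative cells. edgeR with library as a block called 91 of 4195 genes (2.17%), of which 43 were higher and 48 lower in positive cells, and 80 moved the same way in all 4 libraries. Among the higher genes were Spp1, Fn1, Pdpn and Mmp13. Among the lower ones were Ccl8, a monocyte-attracting chemokine, and the MHC class II genes H2-Aa and H2-Eb1.

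Spp1, which encodes osteopontin, was at 2250, 2480, 1911 and 1114 CPM in positive and 514, 918, 675 and 470 CPM in negative phagocytes (1.46 ± 0.14 on the log2 scale, adjusted p = 1.4e-07). Fn1, fibronectin, was at 833, 924, 1250 and 836 CPM in positive and 179, 296, 333 and 282 CPM in negative cells (1.70 ± 0.17, adjusted p = 1.4e-07). Pdpn, podoplanin, was at 542, 652, 732 and 479 CPM against 83.8, 270, 194 and 94.6 CPM (1.82 ± 0.21, adjusted p = 3.6e-06). For each of Spp1, Fn1 and Pdpn, the lowest positive value lay above the highest negative value. Spp1 and Fn1 are themselves markers in the gate lists, of the osteoclast-like and monocyte classes.

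Ccl8 was at 83.3, 278, 0 and 664 CPM in positive and 3882, 1639, 1325 and 3301 CPM in negative phagocytes (-3.03 ± 0.27, adjusted p = 7.0e-08). H2-Aa was at 1125, 1631, 1589 and 914 CPM in cells with Arg1 against 4723, 3242, 4030 and 3765 CPM without (-1.63 ± 0.15, adjusted p = 1.3e-07), and its partner chain H2-Eb1 moved by -1.71 ± 0.15 (adjusted p = 7.0e-08). Klf2 (-2.33 ± 0.35, adjusted p = 1.9e-04) and Atf3 (-1.79 ± 0.23, adjusted p = 1.6e-05), both transcription factors, were also lower. No positive value of Ccl8 or H2-Aa reached a negative one. Of the called genes that moved the same way in all 4 libraries, the 10 with the largest changes in each direction are named, and these 20 kept their direction in each alternative in which they passed the filter, while Pdpn, Fn1, Spp1, Ccl8, Klf2, Atf3, H2-Eb1 and H2-Aa stayed called without each library in turn.

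The other 12 of the 20 lost their call without at least 1 library. Higher in cells with Arg1 were Dhrs9, an oxidoreductase (2.90), Ptges, a prostaglandin E synthase (2.78), Cav1, a caveolar coat protein (2.43, and 1.19 within class), AA467197 (1.88), Cxcl1, a neutrophil-attracting chemokine (1.81, and 0.39 within class), and Mmp13, a collagenase (1.66). Dhrs9, Ptges and AA467197 were each at 41.7 CPM in the positive cells of Control 1, the lowest value that a counted gene can show there. Lower were Tmem176b (-1.98) and Tmem176a (-1.72), Gas6, a ligand of receptors that take up dying cells (-1.94), Ighm, the heavy chain of IgM (-1.88), and Gpr183, an oxysterol receptor (-1.74).

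Nos2 was the member that differed most with Arg1 status, by 2.97 ± 0.76 (edgeR, adjusted p = 0.0346, range over the alternatives 1.4e-04 to 0.36). It was at 41.7, 55.6, 17.9 and 57.1 CPM in positive and 20.2, 0, 0 and 11.8 CPM in negative phagocytes, and the call was lost without any 1 library. In Control 1 and hucMSC-Exo 1 the positive cells held 24000 and 56000 UMIs of all genes. Their Nos2 values are the lowest that a counted gene can show in those sums. Arg2 differed by 0.52 ± 0.26 (adjusted p = 0.42), Odc1 by 0.22 ± 0.22 (adjusted p = 0.76) and Ass1 by -0.07 ± 0.36 (adjusted p = 0.98), none of them called. Slc7a2 passed the filter only in the fit without drawing down, where it was 1.90 ± 0.33 higher in cells with Arg1 (adjusted p = 0.0012), which were deeper there, with a median of 7742.5 against 7013 UMIs.

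The split by Arg1 was also in part a split by class. Osteoclast-like macrophages made up 21.5% of the positive and 10.7% of the negative cells, C1q macrophages 39.7% and 47.4% and monocytes 30.1% and 35.0%. With library and single class as a block, 62 of 1734 genes were called, with Pdpn (1.66), Fn1 (1.51), Spp1 (1.19), Ccl8 (-1.80), H2-Eb1 (-1.24) and H2-Aa (-1.45) among them. That fit held sums of Control 2 and hucMSC-Exo 2 for each class, of hucMSC-Exo 1 for monocytes only and of Control 1 for none. It thus does not repeat the comparison over all libraries. Within class Cxcl1 fell to 0.39 and Cav1 to 1.19, and both lost their call, as did AA467197 (1.35), Mmp13 (1.28), Ptges (2.32), Klf2 (-2.08) and Gas6 (-1.81), while Nos2, Dhrs9 and Ighm did not pass the filter there. Of 17 pathway genes tested 1 was higher with Arg1, Gatm (1.31 ± 0.33, edgeR adjusted p = 0.030, 3 of 4 libraries), where 2.17% of all genes were called, and the list median was 0.02 against -0.03 for all genes.

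Lists of activation genes were also read by Arg1 status, in the fit that called 2.17% of all genes. Of 8 genes of alternative activation, the state macrophages take under type 2 cytokines, 1 was called, the chemokine gene Ccl24 (3.38 ± 0.41, edgeR adjusted p = 4.8e-06, higher in 3 of 4 libraries), while the median of the list was -0.63 against -0.03 for all genes. Of 10 genes of classical activation, such as Tnf and Il1b, edgeR called 0, and their median was 0.01. Neutrophil markers in the phagocytes summed to 96.6, 357, 192 and 317 CPM, with 3, 1, 3 and 2 of the 8 at 0, and fibroblast markers to 168, 364, 182 and 277 CPM, with none of the 6 at 0. Both were higher in the replicate 2 libraries, as Arg1 was, while the keratin list (711, 330, 486 and 434 CPM) was not, and their part in the Arg1 level was not tested.

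**Figure D5:**
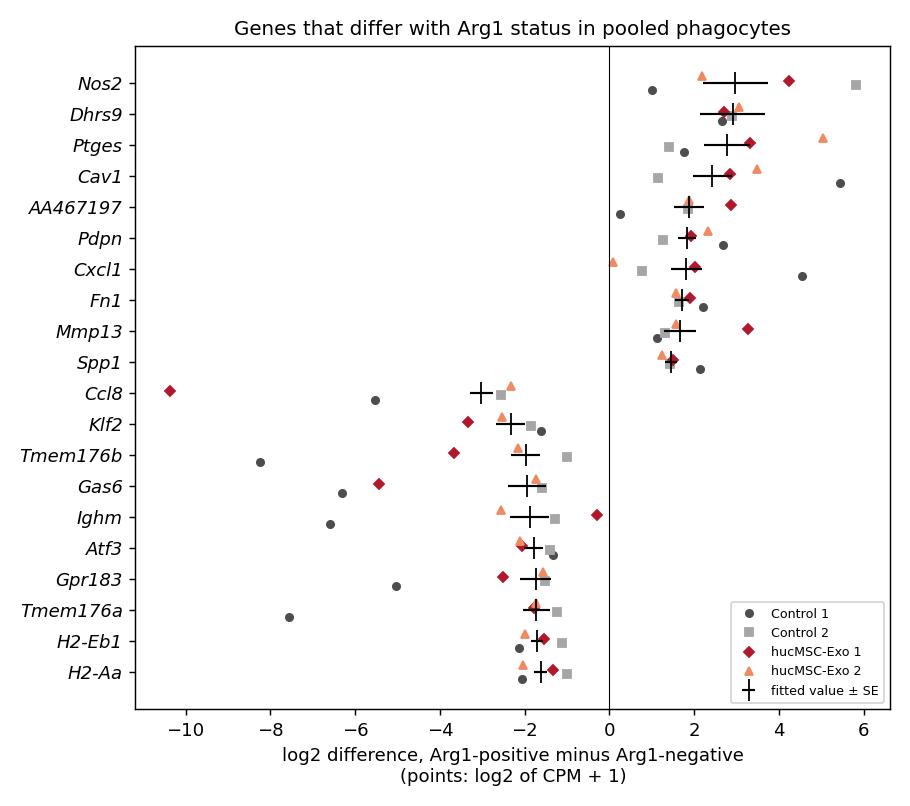
Log2 difference between phagocytes with and without an Arg1 UMI (horizontal) for the named genes (vertical), with points for the libraries on the log2(CPM + 1) scale and black marks for the fitted value with its SE. Spp1, Fn1 and Pdpn lie to the right at 1.46 to 1.82 and Ccl8 and H2-Aa to the left at -3.03 and -1.63, with all 4 libraries on the same side.

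Treated and control mice were compared in 12 sets of cells to ask whether the treatment moved these genes. No member was called in any set in which it passed the filter on low counts. A member without counts in a set, such as Nos2 in NK cells, was not tested there. edgeR called 0 genes (0%) in 10 of the 12 sets, among them the pooled phagocytes, where 104 genes had an unadjusted p under 0.05 and DESeq2 called 0. In αβ T cells 0.0393% of genes were called and in dendritic epidermal T cells 0.0282%, 2 genes each, none of them a gene of arginine metabolism, with 132 and 364 genes at an unadjusted p under 0.05 and 2 and 3 called by DESeq2.

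For Arg1, the difference between the hucMSC-Exosomes and control groups was 0.46 ± 0.78 on the log2 scale in the pooled phagocytes, 0.85 ± 0.71 in osteoclast-like macrophages, 0.23 ± 0.60 in monocytes and 0.35 ± 0.90 in C1q macrophages, with SEs about as large as the differences or larger. Arg1 was counted in 20.2% ± 14.6 (SD, n = 2) of the control phagocytes and 18.7% ± 8.47 (SD, n = 2) of the treated ones on average, and this change of -1.50 points lay within the spread (exact two-sided permutation test, p = 1, where 0.333 is the smallest p that 2 against 2 allow). Its sign turned after drawing down to 2000 UMIs (1.14 points) and with 2 UMIs for a positive cell (0.95 points). Without Control 2, Arg1 was called higher in the hucMSC-Exosomes group in C1q macrophages (2.15) and in the pooled phagocytes (1.95), and without hucMSC-Exo 2 the same differences were -1.84 and -1.11. The sign of the Arg1 difference therefore rested on which library was left out.

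The replicate numbers separated the libraries more than the groups did in Arg1. With replicate number in place of group, number 2 minus number 1 was 2.78 ± 0.28 in C1q macrophages (edgeR, adjusted p = 0.22), where the groups differed by 0.35 ± 0.90, although neither was called. The matrix letters divide the libraries in the same way as the replicate numbers, and number, letter and any batch cannot be told apart here.

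Arg2 differed between the groups by 0.14 ± 0.35 in neutrophils and 0.73 ± 0.34 in monocytes, and the share of neutrophils with Arg2 was 58.7% ± 1.11 (SD, n = 2) in control and 56.0% ± 5.06 (SD, n = 2) in treated mice (exact permutation test, p = 1). Nos2 in neutrophils was higher in the hucMSC-Exosomes group by 1.32 ± 0.65, which was not called, and its mean share was 2.49% ± 3.52 (SD, n = 2) in control and 7.39% ± 1.83 (SD, n = 2) in treated mice, with both treated libraries above both controls (exact permutation test, p = 0.333, the smallest possible). In the pooled phagocytes Nos2 differed by -0.49 ± 0.71 and Slc7a2 by -0.97 ± 0.58. The 0 share of Control 1 rests on 38 neutrophils.

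Odc1 differed between the groups by 0.47 ± 0.34 in αβ T cells, 0.18 ± 0.25 in IL-17 γδ T cells, 0.51 ± 0.35 in dendritic epidermal T cells and -0.34 ± 0.38 in the pooled phagocytes. Without Control 2 the difference was called in αβ T cells (1.39) and IL-17 γδ T cells (0.66). Ass1 differed by 0.59 ± 0.33 in monocytes, 0.51 ± 0.27 in the pooled phagocytes and 0.32 ± 0.34 in αβ T cells. In the keratin-gated cells, a set of 217 cells spread over 18 clusters and not named as a cell type, Odc1 differed by 0.94 ± 0.36 (edgeR, unadjusted p = 0.038, adjusted p = 1.0). No gene of the pathway or activation lists was called between the groups in any set.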

How the data were processed

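The authors prepared droplet 3′ libraries and deposited whole-number UMI counts per gene and cell, made with Cell Ranger 6.1.2 on mm10 and not normalized. The paper separated immune cells computationally by PTPRC, and the deposited cells are fewer than it states for these libraries. The limits given in the paper's results were applied to each cell (its methods give the lower one only), 200 to 3000 genes and up to 10% of UMIs from mitochondrial genes. Each cell got the mean z-score (at most 3) of 18 marker lists and joined the highest one if it was at least 0.3 and led by 0.15, and 571 of 6443 cells lay within 0.05 of that limit. Of the rest, 924 cells stayed ungated and 101 scored for several phagocyte lists. Scrublet marked 30 cells (0.466%), and the sources do not say whether the authors' doublet removal came before deposit, so the 5% of cells with the highest scores (323) were also left out as an alternative.

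UMIs were summed per library and class, for the 11 classes with at least 10 cells in every library, and tested with edgeR 4.0.16 in R 4.3.3 (quasi-likelihood, TMM, filterByExpr, Benjamini-Hochberg over all genes tested, threshold 0.05), with the library as a block between classes and with the group alone between groups. DESeq2 1.42.0 was an alternative. Shares were compared with exact permutation tests of 4 libraries, and intervals and limits (3 counts) cover counting error only. To match depth, cells were drawn down to 2000 UMIs (seed 0) and shallower cells left out. The comparison by Arg1 status was planned within single classes, but only 2 or 3 libraries then had 10 cells of each status, so pooled phagocytes were used. Likeness of genes used Pearson's r of log2(CPM + 1) over 64 sums. The edgeR fits were tested on simulated data. Each library is 1 mouse, so p-values between the groups measure the spread between 4 mice. Those between classes and by Arg1 status measure the spread left after the library block, over several sums of the same 4 mice.

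Named were the 6 genes in every class, the other genes of the pathway past the threshold, and the 10 genes that changed most in each direction with Arg1 status among those called and moved the same way in all 4 libraries. The members, the lists and the alternatives were chosen with earlier results of these data known, and the pairs of classes named were chosen after their values were seen. Positions are from the GENCODE annotation of GRCm38. Other alternatives were DESeq2 size factors, no filter, a stricter gate (lead 0.5), Leiden clusters, all deposited cells, a replicate block and leaving out each library. The osteoclast-like class was fitted under neither the stricter gate nor Leiden clusters.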

Additional observations from a re-analysis of the deposited data

Results flagged for a closer look

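In Nos2, the counted levels of neutrophils and monocytes had opposite orders in the 2 groups, but the control order rested on few UMIs. The Nos2 level of neutrophils minus that of monocytes was -27.8 CPM in Control 1 and -17.9 CPM in Control 2, but 39 CPM in hucMSC-Exo 1 and 44.8 CPM in hucMSC-Exo 2. This difference between the groups was not tested. The values rest on 0, 20, 6 and 77 Nos2 UMIs in neutrophils, and 33 of the Nos2 UMIs of the Control 2 phagocytes came from 1 monocyte.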

How the results depend on the processing

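With no filter on low counts, the genes called between the groups were 17 in αβ T cells, 23 in C1q macrophages, 6 in conventional dendritic cells, 37 in dendritic epidermal T cells, 12 in IL-17 γδ T cells, 14 in ILC2, 8 in keratin-gated cells, 37 in monocytes, 34 in pooled phagocytes, 5 in NK cells, 1 in neutrophils and 8 in osteoclast-like macrophages, against 2 in αβ T cells, 2 in dendritic epidermal T cells and 0 elsewhere with it. DESeq2 called 1 in C1q macrophages and 1 in monocytes. αβ T cells went to 0 with Leiden clusters, the stricter gate or the top doublet scores left out, and dendritic epidermal T cells to 1 with Leiden clusters. Leaving out 1 library gave 12 to 135 calls in αβ T cells, 0 to 83 in C1q macrophages, 0 to 91 in conventional dendritic cells, 0 to 59 in dendritic epidermal T cells, 2 to 102 in IL-17 γδ T cells, 4 to 26 in ILC2, 0 to 47 in keratin-gated cells, 1 to 60 in monocytes, 0 to 136 in pooled phagocytes, 0 to 14 in NK cells, 0 to 29 in neutrophils and 1 to 31 in osteoclast-like macrophages, where the lone library of a group is assumed to vary like the others. The highest of these counts in pooled phagocytes came without Control 2.

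The replicate numbers of the titles were used as a block, but no label says that a number marks a shared animal, litter or day, and the matrix letters fall the same way. Deviations of samples with the same number correlated at -0.27 in pooled phagocytes, -0.23 in C1q macrophages, -0.18 in monocytes, -0.11 in osteoclast-like macrophages and 0.27 in keratin-gated cells, and between -0.09 and 0.09 in the rest. The replicate block raised the calls to 3 in each of NK, αβ T and dendritic epidermal T cells and changed no call of a member. With the numbers crossed, a pairing chosen after seeing the data, 62 genes were called in pooled phagocytes, 23 in C1q macrophages, 3 in monocytes, 2 in IL-17 γδ T cells and 1 in αβ T cells.

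The Arg1 difference between the groups ran without 1 library from -1.84 to 2.15 in C1q macrophages, -1.11 to 1.95 in pooled phagocytes, -1.73 to 1.75 in osteoclast-like macrophages and -0.46 to 1.51 in monocytes, and was -0.016 with crossed numbers in osteoclast-like macrophages. Arg2 in neutrophils ran from -0.051 to 0.46, Odc1 from -0.072 to 1.39 in αβ T cells and from -0.26 to 0.66 in IL-17 γδ T cells. Between classes, signs turned with all deposited cells for osteoclast-like macrophages in Arg1 against monocytes (-0.40) and against C1q macrophages in Arg2 (-0.70) and Ass1 (-0.91), and for Odc1 in dendritic epidermal T cells minus neutrophils under the stricter gate (-0.42) and with Leiden clusters (-0.63). DESeq2 called Nos2 in 0% of class pairs, against 40% in edgeR. The genes called by Arg1 status were 138 with 2 UMIs for a positive cell, 261 without drawing down, 48 in DESeq2 and 15 to 51 without 1 library, against 91. By Arg1 status, Ass1 turned to 0.0072 without drawing down and 0.0046 in DESeq2 and ran from -0.22 to 0.0070 without 1 library, and Odc1 from -0.27 to 0.39. The cause of these changes was not tested. Over single genes, 604 recomputed values kept their direction and side of the threshold, 74 lost the call, 11 gained it and 22 turned. Over counts, shares and ratios 200 stayed, 13 were lower and 59 higher. A difference in share counted as having stayed if it moved by less than the larger SD within a group. By this wide rule the Arg1 share in pooled phagocytes stayed from -11.8 to 8.80 points, although its sign turned.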

Other observations

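In αβ T cells, Ass1 was higher in cells with a Foxp3 UMI, the transcription factor of regulatory T cells, than in those without, a split chosen after the values had been seen and given with no test. The level of Ass1 was 97.1, 270.0, 337.8 and 208.0 CPM in 18, 61, 32 and 39 cells with Foxp3 and 71.0, 77.1, 87.2 and 72.9 CPM in 46, 130, 49 and 80 cells without, by library in the order used above. Cells with Foxp3 were higher in each library. After drawing down to 2000 UMIs, Ass1 was counted in 22.2%, 46.7%, 35.5% and 39.5% of cells with Foxp3 and in 13.04%, 13.3%, 8.51% and 17.9% of those without. Odc1 had the same order, at 1204, 2734, 2905 and 2651 CPM with Foxp3 and 617, 1991, 2025 and 1589 CPM without. The median depth of cells with Foxp3 was 4823, 5797, 4431.5 and 4383 UMIs, above the 4354, 4139.5, 3832 and 4225.5 UMIs of the others.

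Over 64 sums of 1 library and 1 of 18 classes, the levels most like Arg1 among 2662 genes were those of Pdpn (Pearson r = 0.79), Gpnmb (0.79), Chil3 (0.78), Lamp1 (0.77) and Fn1 (0.76). The levels most like Nos2 were those of Prdx5 (0.63), Hp (0.63), Arg2 (0.62), Csf3r (0.62) and C3 (0.61). Among the 6 genes the closest pairs were Slc7a2 and Arg1 (0.73), Nos2 and Arg2 (0.62) and Ass1 and Odc1 (0.61). The sums share libraries and differ in depth, and Gpnmb, Chil3, Fn1 and Csf3r are markers in the gate lists, so these values describe the sums and have no p.

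The phagocytes left out for more than 3000 detected genes (59, 179, 53 and 24 cells) held Arg1 at 53.8, 92.7, 49.5 and 145.4 CPM, below the 68.7, 314.9, 81.8 and 445.1 CPM of the kept phagocytes in each library. Their share with an Arg1 UMI was 20.3%, 38.5%, 34.0% and 37.5%, and 11.9%, 13.4%, 5.66% and 16.7% after drawing down to 2000 UMIs.

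Endothelial-gated cells of hucMSC-Exo 2 held 11 Arg1 UMIs in 17 cells, or 107.3 CPM. B cells held none in any library and showed 199.8, 1898, 2119 and 1422 CPM of Odc1 in 8, 16, 21 and 16 cells.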
